A study of Mus musculus with 28 samples.

Results

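The zona pellucida genes *Zp1*, *Zp2* and *Zp3*, the growth factor genes *Gdf9* and *Bmp15*, and *Oosp1*, which encodes an oocyte-secreted protein, were chosen by name, by a rule that used no measured value, although earlier results of these data were known. All 6 were found among the 44674 genes of the bulk table and among the 31053 genes of each single-cell matrix, and all 6 passed the low-count filter that left 26790 bulk genes for testing. They were measured in ovaries of juvenile females about a week old. The bulk series held 24 libraries of RNA from the paired ovaries of single females, 6 for each of 4 groups. These were wild-type sham-treated (WT non-IR, 0 Gy), wild-type irradiated (WT IR, 0.5 Gy of whole-body cesium gamma rays), and the same treatments in Chek2-/- females (Chek2-/- non-IR and Chek2-/- IR), all collected 6 h after treatment. The single-cell series held 4 libraries, 1 for each group, each made from the pooled ovaries of several females. Wild-type mice were C57BL/6J, and the Chek2-/- mice carried the whole-body *Chek2*tm1b(EUCOMM)Hmgu allele, from mice obtained from the KOMP program. In them checkpoint kinase 2, a relay of the DNA damage signal, is lost from every cell type. Whether the genotypes were bred in the same colony is not stated.

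The zona pellucida is the glycoprotein coat that a growing oocyte lays down around itself and that the sperm must bind and cross. ZP2 and ZP3 build its filaments in the mouse and ZP1 cross-links them. GDF9 and BMP15 are closely related TGF-beta family ligands that the oocyte secretes to the surrounding granulosa cells, which bind them through BMPR2 and type I receptors and answer through SMAD proteins. Transcription of these genes in the oocyte depends on a small set of germ cell regulators, of which FIGLA binds E-boxes as a dimer with a partner such as TCF3 (E12/E47) and drives the zona genes, and the homeobox protein NOBOX acts on *Gdf9* and *Bmp15*. Most oocytes of a juvenile ovary rest in primordial follicles, and only a minority have begun to grow.

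In the GENCODE M21 annotation of GRCm38 (mm10), *Zp3* lies on chr5:135980099-135988624 on the plus strand, *Zp2* on chr7:120126772-120145291 on the minus strand and *Gdf9* on chr11:53431023-53437904 on the plus strand. *Zp1* (chr19:10914287-10920632) and *Oosp1* (chr19:11667460-11691150) are both on the minus strand of chromosome 19, and *Bmp15* is on the minus strand at chrX:6314107-6320721. All 6 are protein coding. RefSeq promoter windows of 300 bases (250 before and 50 after the start, GRCm38.p6) were at hand for *Zp3*, *Bmp15* and *Oosp1*, and *Zp1*, *Zp2* and *Gdf9* are named only. The 3 windows are shown because FIGLA is known to act on zona genes through E-boxes, and they set a zona gene beside a ligand gene and *Oosp1*, which differed in the oocyte stages described below. Capitals mark every CANNTG, the E-box core, which reads the same on both strands.
*Zp3*, chr5:135979855-135980154, plus strand: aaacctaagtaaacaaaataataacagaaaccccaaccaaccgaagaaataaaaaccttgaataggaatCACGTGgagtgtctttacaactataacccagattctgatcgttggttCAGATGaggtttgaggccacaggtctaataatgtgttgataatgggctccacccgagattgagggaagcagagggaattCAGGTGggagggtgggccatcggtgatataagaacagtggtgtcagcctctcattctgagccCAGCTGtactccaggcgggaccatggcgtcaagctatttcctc
*Bmp15*, chrX:6320675-6320974, minus strand: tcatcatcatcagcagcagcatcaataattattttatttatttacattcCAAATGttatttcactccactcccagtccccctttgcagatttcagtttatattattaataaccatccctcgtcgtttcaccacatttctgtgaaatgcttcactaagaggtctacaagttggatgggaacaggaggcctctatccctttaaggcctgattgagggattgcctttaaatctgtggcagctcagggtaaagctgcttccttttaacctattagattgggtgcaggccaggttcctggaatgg
*Oosp1*, chr19:11691002-11691301, minus strand: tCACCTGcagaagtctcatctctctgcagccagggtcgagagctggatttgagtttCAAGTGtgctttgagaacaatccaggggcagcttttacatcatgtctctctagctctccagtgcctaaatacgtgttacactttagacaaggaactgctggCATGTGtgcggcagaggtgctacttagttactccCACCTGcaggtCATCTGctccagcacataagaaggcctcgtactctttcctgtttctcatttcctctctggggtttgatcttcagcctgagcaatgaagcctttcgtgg
The *Zp3* window held 4 matches, among them CACGTG and CAGCTG, the *Bmp15* window 1 and the *Oosp1* window 5. Of 32851 promoter windows of the same length, 72.3% held at least 1 CANNTG, 6.49% held 4 or more and 2.1% held 5 or more, while CACGTG was in 7.15% and CAGCTG in 16.3%. The homeobox-type core TAATTA was found in the *Bmp15* window, on either strand, and is in 5.29% of all windows. The related core TGATTG was found there too and is in 14%. A search for TAATTG, present in 8.0%, found none in the 3 windows, and the *Zp3* and *Oosp1* windows held no such core. A match is a description of the letters and not evidence of binding.

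The bulk libraries held 17825167 to 32605747 estimated counts, at which 3 counts equal 0.0931 to 0.168 CPM (the count of a gene scaled to a common library total), so all 6 genes were far above the counting limit. *Chek2* itself averaged 22.42 ± 1.66 CPM (SD, n = 6) in WT non-IR and 3.75 ± 0.545 in Chek2-/- non-IR ovaries, so the libraries labelled Chek2-/- were the low ones. *Nnt*, which is partly deleted in C57BL/6J mice, averaged 32.36 ± 4.22 CPM in WT non-IR and 66.81 ± 8.98 in Chek2-/- non-IR ovaries. The strain background may therefore differ between the genotypes, but this rests on the level of 1 gene and was not tested further. Any effect of strain background cannot be told apart from that of *Chek2*. The Chek2-/- libraries numbered 6, 1 in each treatment, stood apart from the other 5 of their group for all 6 genes, and the members' results and the listed genes named between genotypes are given with and without them. The number comes from the labels. In bulk RNA, fewer cells of a type and less RNA per cell cannot be told apart.

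*Zp2* and *Zp3* were the most abundant of the 6, followed by *Gdf9*. Set per kilobase of exon, which makes levels of different genes comparable, the WT non-IR means were 668.2 CPM for *Zp2*, 607.6 for *Zp3*, 391.2 for *Gdf9*, 197.3 for *Zp1*, 47.61 for *Oosp1* and 30.53 for *Bmp15*. The neighbours *Zp2* and *Zp3* were close to each other relative to their spread, whose coefficients of variation were 9.1% and 10.45%. The order was the same in all 4 groups, down to *Bmp15* at 19.3 CPM per kilobase in Chek2-/- IR ovaries.

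**Figure D1:**
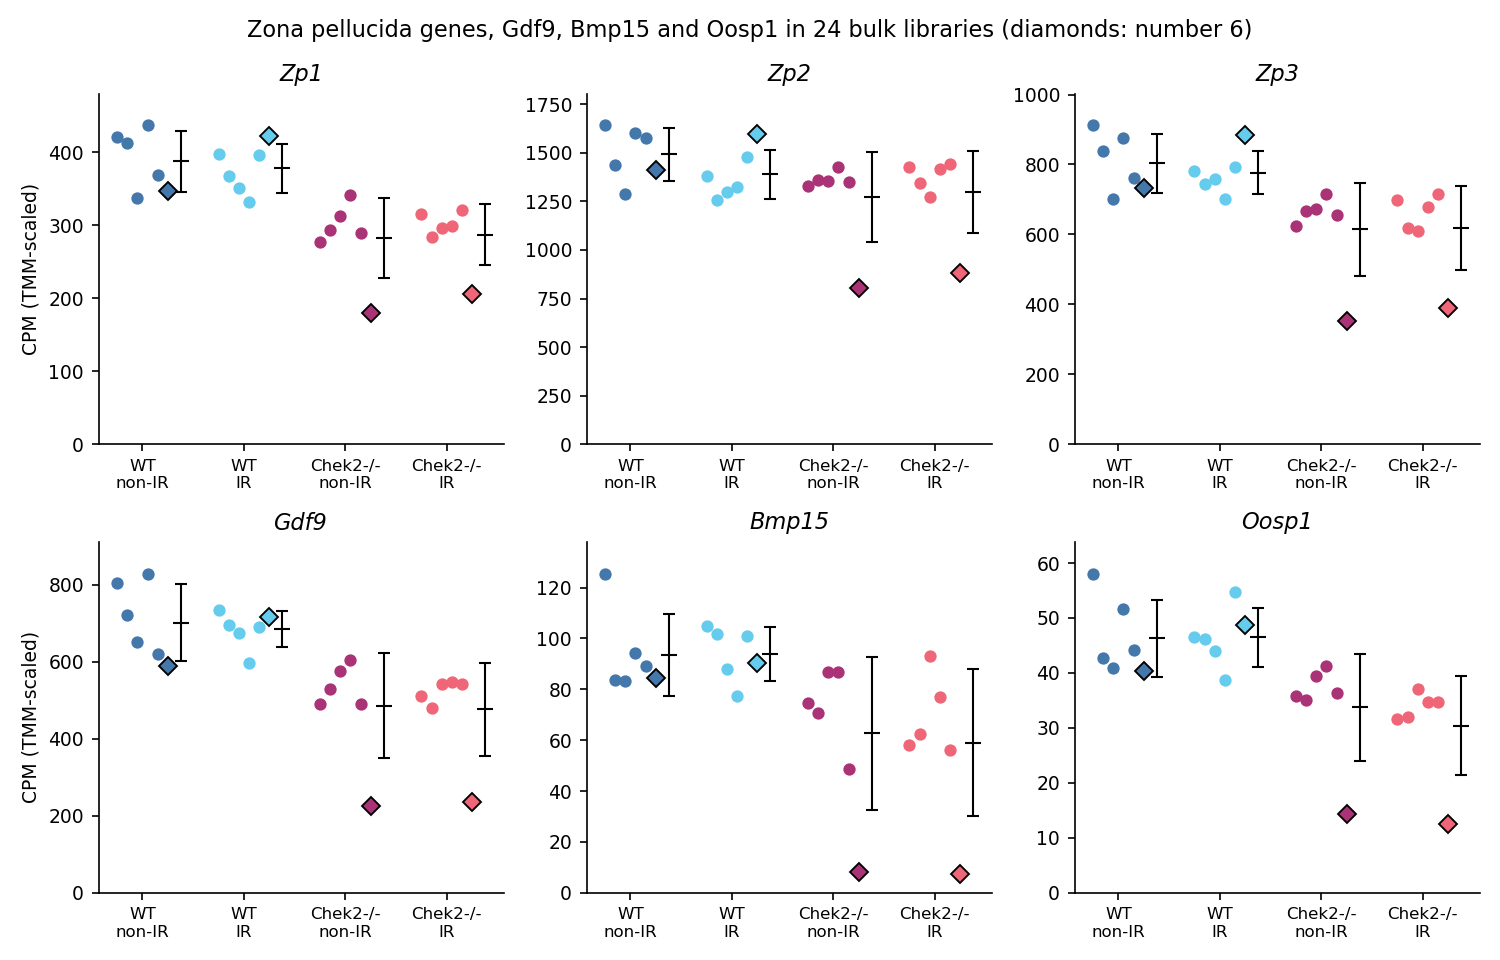
Each panel plots 1 gene in the 24 bulk libraries as CPM after TMM scaling, by group; points are libraries, diamonds are the libraries numbered 6, and the bar at the right of each group is the mean with 1 SD (n = 6). The Chek2-/- diamonds are the lowest points of all 6 panels, and *Bmp15* falls to 8.26 and 7.47 CPM there. The WT diamonds lie inside the span of their groups or at either end of it.

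No change of any of the 6 genes was detected in wild-type ovaries 6 h after irradiation. *Zp1* lay between 337.9 and 436.7 CPM (median 390.6) in WT non-IR libraries and between 332.2 and 422.3 (median 381.9) in WT IR libraries. *Zp2* lay between 1286 and 1641 (median 1506) in sham and between 1257 and 1597 (median 1353) in irradiated libraries. *Zp3* lay between 702.2 and 911.8 (median 799.9) in sham and between 701.6 and 884.1 (median 769.7) in irradiated libraries. The groups overlapped over most of their range for each zona gene. *Gdf9*, the oocyte ligand of granulosa cells, spanned 587.8 to 827.7 CPM (median 685.2) in sham and 596.9 to 734.7 (median 693) in irradiated libraries. Its relative *Bmp15* spanned 83.46 to 125.4 (median 86.88) in sham and 77.24 to 104.8 (median 95.66) in irradiated libraries. *Oosp1* spanned 40.32 to 58.02 (median 43.44) in sham and 38.65 to 54.71 (median 46.28) in irradiated libraries. For these 3 genes as well the irradiated libraries lay almost wholly inside the span of the sham libraries.

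In edgeR's quasi-likelihood fit of all 24 libraries, 0 of 6 were called, which took an adjusted p no higher than 0.05 together with a 2-fold change, against 1.08% of all genes tested, and 0 of 6 passed the adjusted p alone, which 2.41% of genes did. None had an unadjusted p under 0.05 either, against 11.4% of genes, and DESeq2 and limma-voom also passed 0 of 6. The log2 changes ran from -0.10 for *Zp2* (95% interval -0.34 to 0.13, adjusted p = 0.866) to 0.01 for *Bmp15* (-0.76 to 0.77, adjusted p = 1). The interval was narrow for *Zp1* (-0.26 to 0.19) and wide for *Bmp15*. The SE of *Bmp15* was 0.389 in this fit, 0.137 without both Chek2-/- libraries numbered 6 and 0.103 with only the wild-type groups in the fit, where its change was 0.02. The members' median of -0.04 was close to the -0.04 of the 18 genes listed for oocyte growth and to 0.00 over all genes.

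Of the regulators that act upstream of these genes, 3 fell. *Nobox*, the homeobox regulator of *Gdf9* and *Bmp15*, had 168.1 to 188.9 CPM (median 175.3) in WT non-IR and 106.6 to 145.5 (median 124.6) in WT IR libraries, and fell by 0.50 on the log2 scale (adjusted p = 0.00699, edgeR). *Lhx8*, a LIM homeobox regulator, had 45.72 to 56.95 CPM (median 53.97) in sham and 33.67 to 43.24 (median 38.23) in irradiated libraries, and fell by 0.46 (adjusted p = 0.027). *Sohlh1*, a germ cell helix-loop-helix factor of primordial oocytes, had 49.1 to 62.25 CPM (median 54.37) in sham and 26.09 to 44.64 (median 29.21) in irradiated libraries, and fell by 0.78 (adjusted p = 0.000529). In each of these 3 the irradiated libraries lay below every sham library, as they did for 0.885% of genes. They were the 3 of 12 listed regulators that passed, all downward (0.885% of genes passed downward), and each changed by less than 2-fold. *Figla* was among the other 9 (-0.31, adjusted p = 0.195) and passed without both Chek2-/- libraries numbered 6 (-0.30, adjusted p = 0.029). Then 6 of 14 general and 3 of 15 primordial oocyte genes passed, all lower, against 1.7% of all genes that passed downward. With all 24 libraries the regulators' median log2 change was -0.18, that of 14 general oocyte genes -0.23 with 0 passing, and that of 15 primordial oocyte genes -0.30 with *Sohlh1* as the 1 that passed.

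In Chek2-/- ovaries irradiation left the 6 genes within the spread of the libraries too. The medians of sham and irradiated libraries were 290.8 and 298.1 CPM for *Zp1*, 1355 and 1379 for *Zp2* and 661.8 and 647.9 for *Zp3*. They were 509.2 and 526.2 for *Gdf9*, 72.68 and 60.28 for *Bmp15* and 36.07 and 33.3 for *Oosp1*. Every pair of groups overlapped. By edgeR 0 of 6 were called against 0.00373% of genes, and 0 passed the adjusted p alone against 0.0112%. The largest log2 difference was that of *Oosp1*, -0.15 (95% interval -0.56 to 0.26, adjusted p = 1). For the difference between the genotypes in their response to irradiation, 0 of 6 were called against 0.623% of genes and 0 passed the adjusted p alone against 1.03%. The estimates ran from -0.15 for *Oosp1* to 0.13 for *Zp2*, with intervals that reached from -1.17 to 0.99 for *Bmp15*. At an unadjusted p under 0.05 the counts were also 0 of 6 in both comparisons, against 4.4% and 9.14% of genes. *Sohlh1* was the 1 of the 12 regulators whose responses differed between genotypes (0.88 on the log2 scale, adjusted p = 0.0131). Without both Chek2-/- libraries numbered 6, *Nobox* (0.50, adjusted p = 0.00124) and *Lhx8* (0.46, adjusted p = 0.00944) passed as well.

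**Figure D2:**
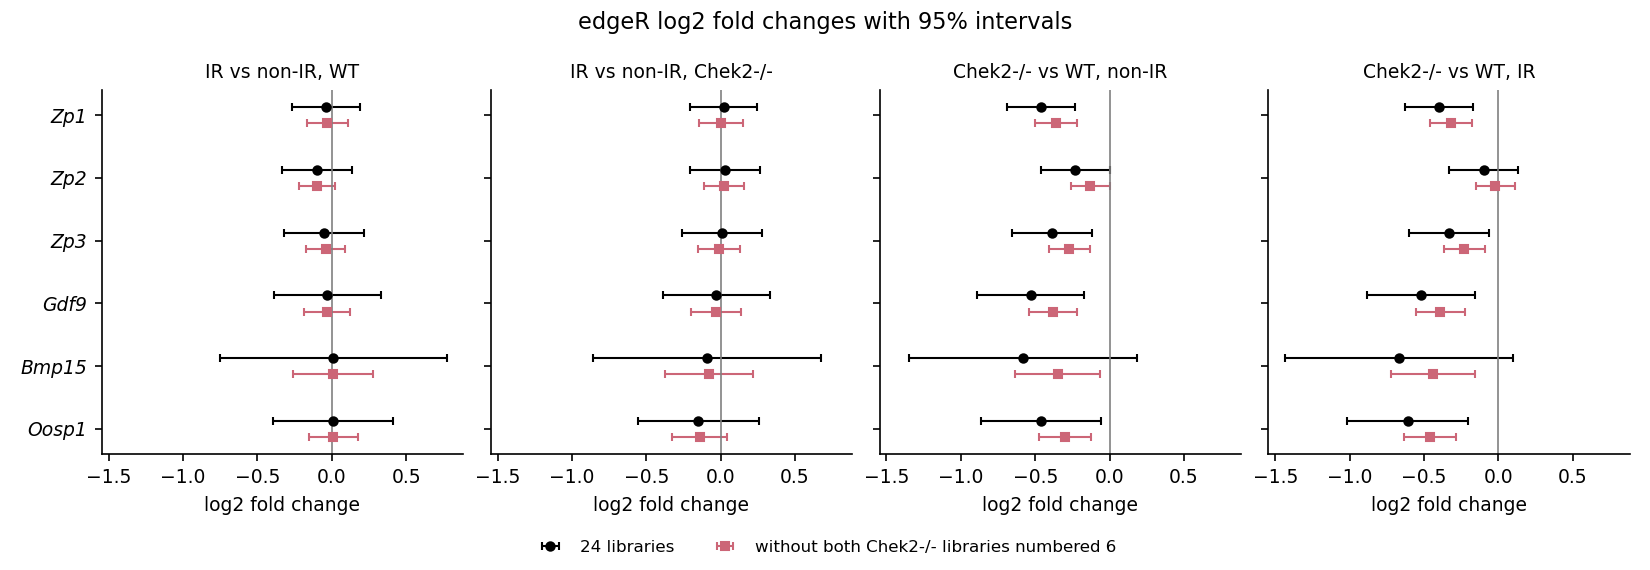
Log2 fold changes from edgeR for the 6 genes in 4 comparisons (x axis, with a line at 0), drawn with 95% intervals; black circles use all 24 libraries and red squares leave out both Chek2-/- libraries numbered 6. The irradiation comparisons straddle 0, the points of the genotype comparisons lie below it, and the intervals of *Bmp15* shrink most without the libraries numbered 6.

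Between genotypes all 6 estimates were below 0. In sham ovaries *Zp1*, the cross-linker of the zona, had 180.3 to 340.9 CPM (median 290.8) in Chek2-/- against 337.9 to 436.7 (median 390.6) in wild-type libraries, and fell by 0.46 on the log2 scale (SE 0.116, adjusted p = 0.0236, edgeR). It was the only one of the 6 to pass the adjusted p, which 5.34% of genes did (2.22% downward and 3.12% upward). With the minimum of 2-fold, 0 of 6 were called against 0.788% of genes. *Gdf9* differed by -0.53 (SE 0.184, adjusted p = 0.0905), *Zp3* by -0.39 (SE 0.137, adjusted p = 0.0962) and *Oosp1* by -0.46 (SE 0.206, adjusted p = 0.198). *Zp2* differed by -0.23 (SE 0.119, adjusted p = 0.267) and *Bmp15* by -0.58 with the widest error (SE 0.391, adjusted p = 0.425). In total 4 of 6 had an unadjusted p under 0.05, against 21.6% of genes. The *Zp1* call was lost when any 1 of 3 libraries was left out, with an adjusted p of 0.0544 without WT non-IR number 2, 0.0689 without WT non-IR number 4 and 0.0513 without Chek2-/- non-IR number 1.

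The irradiated groups showed nearly the same differences, in libraries separate from the sham ones. *Zp1* had 206.4 to 320.5 CPM (median 298.1) in Chek2-/- IR against 332.2 to 422.3 (median 381.9) in WT IR libraries and fell by 0.40 (SE 0.116, adjusted p = 0.0306). *Gdf9* had 234.7 to 548.1 CPM (median 526.2) against 596.9 to 734.7 (median 693), a log2 difference of -0.52 (SE 0.184, adjusted p = 0.0735). *Oosp1* had 12.55 to 37.1 CPM (median 33.3) against 38.65 to 54.71 (median 46.28), a difference of -0.61 (SE 0.207, adjusted p = 0.0634). For these 3 genes every Chek2-/- library lay below every wild-type library, a separation downward that 2.76% of genes had. *Zp3* (-0.33, adjusted p = 0.137), *Bmp15* (-0.67, adjusted p = 0.324) and *Zp2* (-0.10, adjusted p = 0.689) overlapped. *Zp1* was again the 1 of 6 that passed the adjusted p, against 9.84% of genes (4.32% downward and 5.52% upward), and 0 were called with the 2-fold minimum, against 2.39%. The *Zp1* call was lost without WT IR number 1 (0.0599), WT IR number 6 (0.0524) or Chek2-/- IR number 6 (0.0568). At an unadjusted p under 0.05 there were 4 of 6, against 23.6% of genes.

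Leaving out both Chek2-/- libraries numbered 6, a choice made after their values had been seen, made both the differences and their errors smaller. In sham ovaries 4 of 6 then passed the adjusted p, all lower in Chek2-/-, against 7.09% of genes under the same setting (3.72% downward). They were *Zp1* (-0.36, adjusted p = 0.00735), *Gdf9* (-0.38, adjusted p = 0.0097), *Zp3* (-0.27, adjusted p = 0.0237) and *Oosp1* (-0.30, adjusted p = 0.0444). In irradiated ovaries 5 of 6 passed, all lower, against 12.6% of genes (6.21% downward), with *Oosp1* at -0.46 (adjusted p = 0.00134), *Gdf9* at -0.39 (adjusted p = 0.0027), *Zp1* at -0.32 (adjusted p = 0.00447), *Zp3* at -0.23 (adjusted p = 0.0303) and *Bmp15* at -0.44 (adjusted p = 0.047). *Bmp15* did not pass in sham ovaries (-0.35, adjusted p = 0.148), and *Zp2* did not pass in either (-0.13, adjusted p = 0.254, and -0.02, adjusted p = 0.919). The 5 remaining Chek2-/- IR libraries of *Zp2* spanned 1272 to 1444 CPM, inside the 1257 to 1597 of wild type. With these libraries left out none of the changes reached 2-fold.

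Because *Zp2* differed least between genotypes, the proportions of *Zp1* and *Zp3* to it differed as well. *Zp1* amounted to 25.98% ± 1.9 (SD, n = 6) of *Zp2* CPM in WT non-IR, 27.23% ± 1.53 in WT IR, 22.18% ± 1.15 in Chek2-/- non-IR and 22.2% ± 0.995 in Chek2-/- IR libraries. The irradiated groups spanned 21.09% to 23.37% in Chek2-/- and 25.1% to 29.24% in wild type, and the sham groups overlapped, from 20.81% to 23.85% and from 23.39% to 28.7%. In Chek2-/- the libraries numbered 6 lay within this pattern at 22.46% and 23.37%. *Zp3* amounted to 53.9% ± 3.42 of *Zp2* in WT non-IR and 47.98% ± 2.32 in Chek2-/- non-IR libraries, of which number 6 was the lowest at 43.74%. These ratios were not tested. *Bmp15* amounted to 13.37% ± 1.7 of *Gdf9* in WT non-IR and 11.94% ± 4.51 in Chek2-/- non-IR libraries, and to 3.65% and 3.18% in the Chek2-/- libraries numbered 6. *Oosp1* amounted to 6.611% ± 0.531 of *Gdf9* in WT non-IR and 6.905% ± 0.403 in Chek2-/- non-IR libraries.

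Other oocyte genes were measured beside the members in the genotype comparisons. Of the 18 oocyte growth genes all 18 were lower in Chek2-/- non-IR ovaries by their estimate (median -0.43), although *Gja4*, the connexin of oocyte gap junctions, was the 1 that passed (-0.43, adjusted p = 0.0411), near the 5.34% of all genes. In irradiated ovaries the growth genes *Npm2*, a nucleoplasmin (-0.54, adjusted p = 0.0119), and *H1foo*, the oocyte linker histone (-0.58, adjusted p = 0.0399), passed, 2 of 18 beside 9.84% of all genes, as did *Astl*, the protease that cleaves ZP2 after fertilisation (-0.44, adjusted p = 0.0219). The general oocyte genes had a median of 0.01 in sham ovaries. The primordial oocyte genes had a median of 0.27, with 1 of 15 passing, upward (3.12% of genes did), and 4 of 15 without the libraries numbered 6, all upward (3.37% of genes did). In irradiated ovaries 6 of 14 general, 8 of 15 primordial and 6 of 12 regulator genes were higher in Chek2-/- than in wild type, against 5.52% of all genes, led by *Sycp3*, a synaptonemal complex protein (1.03, adjusted p = 0.00155), and *Sohlh1* (1.00, adjusted p = 1.18e-05). The medians of all genes tested were 0.01 in both comparisons. *Umod*, a zona-domain protein of the kidney, passed in sham ovaries (4.62, adjusted p = 0.012) on 1 library, Chek2-/- non-IR number 6 with 72 CPM, while the other 5 had 0.458 to 1.11, and it did not pass without the libraries numbered 6 (0.79, adjusted p = 0.0837). Without both those libraries 11 of 18 growth genes passed in sham ovaries, all lower in Chek2-/- (3.72% of all genes passed downward), among them *Gja4* (-0.32, adjusted p = 0.00722). In irradiated ovaries 10 of 18 passed, 9 lower and 1 higher, against 12.6% of genes, with *Npm2* at -0.45 (adjusted p = 9.47e-05) and *H1foo* at -0.46 (adjusted p = 0.000774), and *Astl* was at -0.36 (adjusted p = 0.00129). The general, primordial and regulator counts there became 10, 9 and 8, all higher (6.38% of genes were), with *Sycp3* at 1.12 (adjusted p = 3.3e-05) and *Sohlh1* at 1.04 (adjusted p = 8.6e-07), and held every gene that had passed before.

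Genes listed for the receiving side were measured in whole ovaries. *Kitl*, the granulosa growth factor that acts back on the oocyte, rose by 0.51 on the log2 scale in Chek2-/- non-IR ovaries (adjusted p = 0.0387, edgeR). It had 115.9 to 151.5 CPM in wild-type and 157.6 to 268.3 in Chek2-/- libraries. *Id3*, a SMAD target, fell by 0.39 (adjusted p = 0.0456). These were the 2 of 19 listed granulosa targets that passed, 1 in each direction, near the 5.34% of all genes. Of 14 receptors and SMADs, *Tgfbr1*, the type I receptor of GDF9, rose by 0.43 (adjusted p = 0.0137) and *Smad5* by 0.17 (adjusted p = 0.0334) in sham ovaries. In irradiated ovaries *Acvr1b* fell by 0.29 (adjusted p = 0.00069), and *Smad2* (0.11, adjusted p = 0.0469) and *Smad4* (0.18, adjusted p = 0.0127) rose, with 0 of the 19 granulosa targets passing. The 3 of 14 stand beside 9.84% of all genes, and the 2 of 14 in sham ovaries beside 5.34%. Without the Chek2-/- libraries numbered 6, of which the sham one held the 268.3 CPM of *Kitl*, *Kitl* (0.37, adjusted p = 0.0265), *Tgfbr1* (0.42, adjusted p = 0.0203), *Acvr1b* (-0.30, adjusted p = 0.000475) and *Smad4* (0.19, adjusted p = 0.00694) still passed. *Id3* (-0.34, adjusted p = 0.0524), *Smad5* (0.13, adjusted p = 0.0622) and *Smad2* (0.10, adjusted p = 0.0655) no longer did. In irradiated ovaries 1 of the 19 granulosa targets passed under that setting, lower in Chek2-/-, where 6.21% of genes passed downward. After irradiation, 0 of the 14 receptors and SMADs and 0 of the 19 granulosa targets passed in either genotype, with 3 and 1 of them at an unadjusted p under 0.05 in wild type and 0 and 0 in Chek2-/- ovaries, against 11.4% and 4.4% of all genes. Without the Chek2-/- libraries numbered 6, 1 of the 14 receptors and SMADs passed in wild type, upward, beside 2.41% of all genes in the fit of all libraries. In the single-cell classes described below, not all the named genes were highest in granulosa-like cells. *Kitl* had 253 CPM there and 136 in endothelial-like cells, but *Id3* had 155 and 463 and *Smad5* 59.0 and 128. *Tgfbr1* had 58.0 and 38.6, *Smad2* 39.3 and 34.4, and *Smad4* 89.1 and 74.9. *Acvr1b* had 6.31 and 6.71, with 13.7 in oocyte-like cells. The class behind a bulk change was not tested.

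The Chek2-/- libraries numbered 6 had low values for every member, and to very unequal degrees. *Bmp15* stood at 8.26 CPM in the sham and 7.47 in the irradiated library, 11.2% and 10.8% of the mean of the other 5 libraries of the group, whose lowest values were 48.56 and 56.34. *Oosp1* stood at 14.41 and 12.55 CPM, 38.3% and 36.9% of the others. *Gdf9* stood at 226.4 and 234.7 CPM, 42.1% and 44.7% of the others. The zona genes were less reduced, *Zp3* to 52.7% and 58.8%, *Zp2* to 58.8% and 64.0% and *Zp1* to 59.6% and 68.1%. All 18 oocyte growth genes were likewise below the other 5 libraries in both treatments, as were 32.6% and 29.9% of all genes, at a median of 45.6% and 52.0%. The general oocyte genes had medians of 62.4% and 77.5%, the primordial oocyte genes 62.3% and 81.4%, and all genes 99.8% and 99.5%. The 17 granulosa targets measured above 1 CPM had medians of 73.8% and 73.2%, with 8 and 10 of them below the other 5 libraries, against the same 32.6% and 29.9%. Among these targets, *Amh* was at 20.2% and 16.9% and *Fshr*, the receptor of follicle-stimulating hormone, at 15.1% and 12.2% of the others. *Kitl* was at 159% and 162% and *Ptgs2*, the prostaglandin synthase of the cumulus, at 322% and 408%. In the single-cell classes described below, *Amh*, *Fshr* and *Kitl* had 434, 2.93 and 253 CPM in granulosa-like cells. In stromal fibroblast-like cells they had 5.08, 0.0447 and 59.2. *Ptgs2* was low in both, at 0.237 and 0.339. The part of the differences in the libraries numbered 6 in the genotype comparisons was not tested beyond leaving both libraries out.

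**Figure D3:**
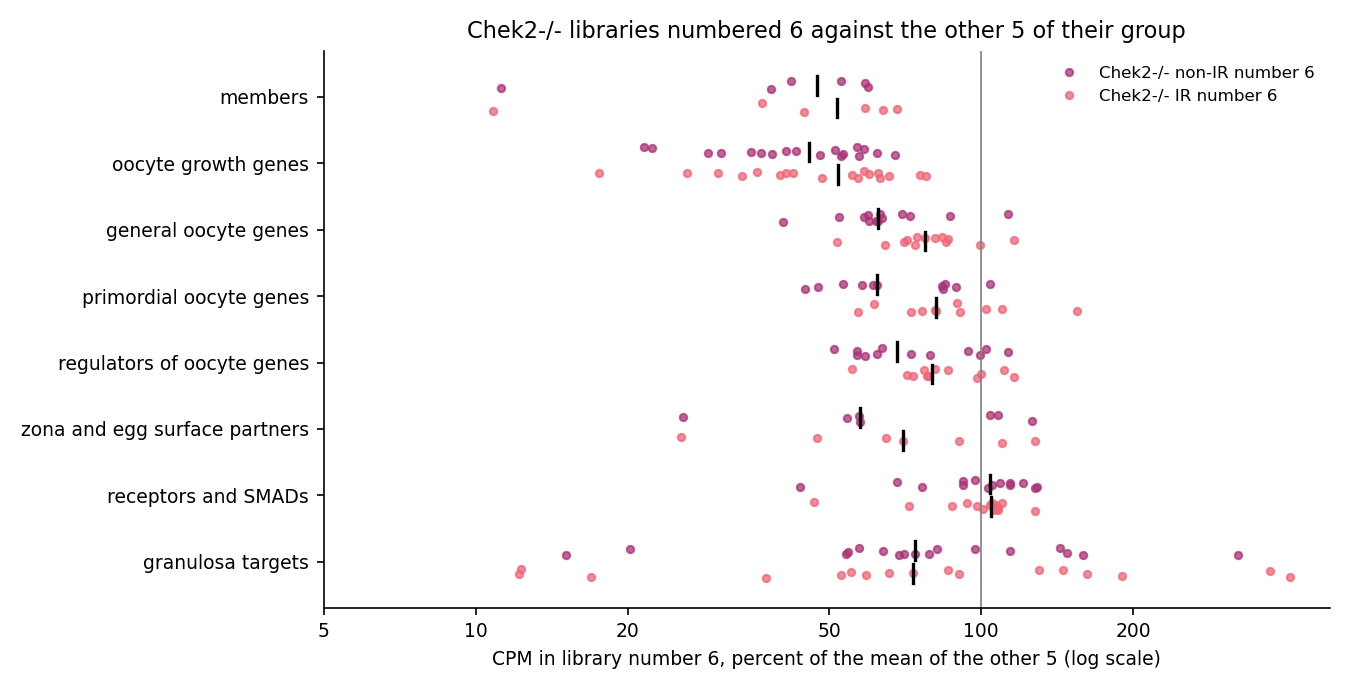
CPM of each gene in the Chek2-/- libraries numbered 6 as a percentage of the mean of the other 5 libraries of the same group (log axis), for the 6 genes described here (members) and 7 gene lists; points are genes averaging at least 1 CPM in those 5 libraries, bars are list medians and the grey line is 100%. *Bmp15* is the leftmost point of the top row at 11.2% and 10.8%, and receptors and SMADs centre near 104%.

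Across the 24 libraries the 6 genes varied together within groups. For deviations of log2 CPM from the group mean, Pearson's r over the 15 pairs ran from 0.859 (*Zp1* and *Bmp15*, Spearman's rho 0.63) to 0.973 (*Gdf9* and *Oosp1*, rho 0.881), with Benjamini-Hochberg adjusted permutation p of at most 0.0072 for r and 0.0043 for rho. Much of this rested on the Chek2-/- libraries numbered 6. In the other 22 libraries r ran from 0.135 (*Zp2* and *Bmp15*, rho 0.202, adjusted p = 0.51 for r) to 0.917 (*Zp1* and *Zp3*, rho 0.921, adjusted p = 0.00015). Leaving out the 2 outermost libraries of each pair's x axis gave 0.461 for *Zp2* and *Bmp15* and 0.927 for *Zp1* and *Zp3*. The zona genes stayed tied to each other without those libraries (0.741 for *Zp1* and *Zp2*, 0.832 for *Zp2* and *Zp3*), and so did *Bmp15* to *Oosp1* (0.675, adjusted p = 0.00037) and to *Gdf9* (0.61, adjusted p = 0.0028). For *Bmp15* with the 3 zona genes the relation no longer passed (adjusted p = 0.11, 0.51 and 0.38), nor did it for *Zp2* with *Gdf9* (0.455, adjusted p = 0.09). Within the wild-type libraries r of *Zp2* and *Bmp15* was 0.45 and within the Chek2-/- libraries 0.941. Of 15950 genes compared, those whose deviations were most like the members over the 24 libraries were *Fbxw24* (mean r 0.963), *Patl2* (0.959), *Kpna7* (0.958), *Npm2* (0.957) and *Fbxw27* (0.956). Without the libraries numbered 6 their mean r was 0.719 to 0.771.

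In the single-cell libraries almost all transcripts of the 6 genes were in oocytes. Of 40594 barcodes, 36408 cells were kept, and 578 of these (1.59%) formed a cluster in which 10 of 10 oocyte markers, none of them a member, passed. The oocyte-like cells held 97.03% of the molecules (UMIs) of *Zp1*, 96.5% of *Zp2*, 96.77% of *Zp3*, 96.49% of *Gdf9*, 96.33% of *Bmp15* and 98.09% of *Oosp1*. Levels in cells are UMIs of a gene as CPM of all UMIs of the class, which follow the sums of cells and not their average. *Zp2* reached 1713 CPM in oocyte-like cells and 6.91 in all other cells together, a 248-fold difference. For *Bmp15* the levels were 54.26 and 0.23 CPM (236-fold) and for *Oosp1* 183.1 and 0.397 (461-fold). With 1 library per group no test was possible, and the intervals given cover counting error only. No barcode was shared between the oocyte-like cells of any pair of libraries. Each pair shared 30 to 73 barcodes before filtering and 15 to 31 among the cells kept. Whether a barcode of an oocyte-like cell recurred among other cells of another library was not checked.

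**Figure D4:**
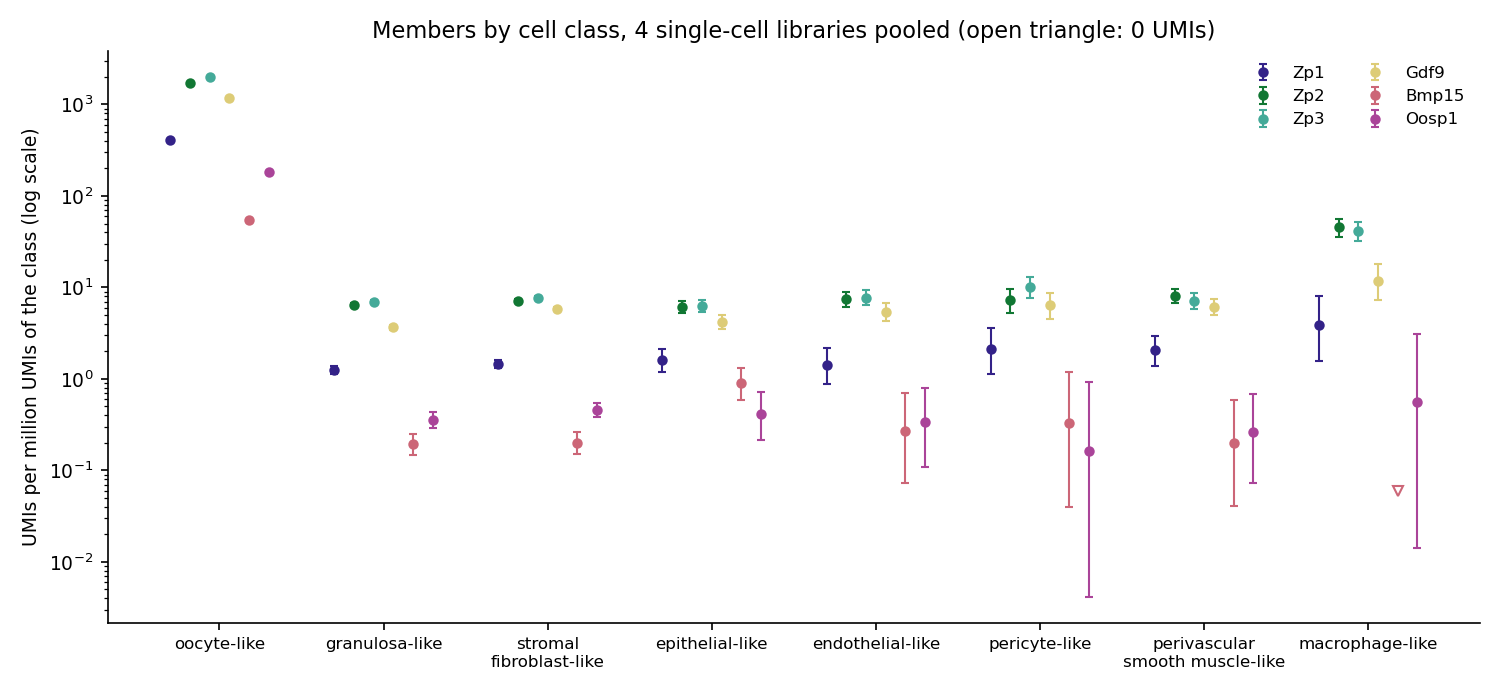
CPM of all UMIs of the class (log axis) for the 6 genes in 8 named cell classes, 4 libraries pooled, with exact Poisson 95% limits of counting error. The oocyte-like class stands far above every other class, and the macrophage-like point of *Zp2* at 45.35 rests on 1 cell.

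Pooled over classes and libraries, the genes other than *Oosp1* had nearly the proportions outside oocytes that they had in oocytes. Relative to *Zp2* UMIs, *Zp1* amounted to 23.9% in oocyte-like and 20.2% in all other cells, *Zp3* to 117% and 107%, *Gdf9* to 68.1% and 68.4% and *Bmp15* to 3.17% and 3.33%. *Oosp1* was the exception, at 10.7% and 5.75%. Within classes and libraries the proportions differed more. *Gdf9* was at 56.7% in granulosa-like and 80.7% in stromal fibroblast-like cells. In the Chek2-/- non-IR library *Zp3* was at 119% in oocyte-like and 88.1% in other cells, *Zp1* at 20.9% and 13.8% and *Bmp15* at 1.32% and 3.46%. The low levels were alike in granulosa-like cells (*Zp2* at 6.45 CPM) and stromal fibroblast-like cells (7.17). At least 1 *Zp2* UMI was found in 13.2% of 12974 granulosa-like cells (median 20998 UMIs per cell), and 9.28% of 18593 stromal fibroblast-like cells (median 11963 UMIs), a class that should lack the gene. With each cell thinned to 3000 UMIs, and cells with fewer left out, the share of granulosa-like cells was 1.93%, against 90.3% of oocyte-like cells. These somatic values are given as a background level, and their source was not tested. Among macrophage-like cells 140 of the 184 member UMIs were in 1 WT IR cell, with 65 of *Zp2* and 57 of *Zp3*. *Bmp15* had 26 UMIs in 25 of 1124 epithelial-like cells, 0.893 CPM (0.583 to 1.31), against 0.195 (0.149 to 0.251) in granulosa-like cells. No other class had a *Bmp15* level as high outside oocytes, and its source was not tested.

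The 578 oocyte-like cells were clustered again without the 6 genes and without radiation-responsive genes, and 8 clusters resulted. Clusters 0 and 2 (67 and 38 cells) met 10 of 11 markers of growing oocytes and are called growing-like. Cluster 4 (75 cells) met 6 of 9 primordial markers and 0 of 11 growing markers and is called primordial-like. Clusters 1, 3, 5 and 6 (335 cells) met 0 of the growing markers and stayed unnamed. Somatic genes were among the leading genes of 3 of these, *Cst12* and *Igfbp2* in cluster 1 and *Gm2044* and *Gm37350* in cluster 3, which also lead a granulosa-like cluster, and the collagens *Col1a1* and *Col1a2* in cluster 6. Their 266 cells are in the oocyte-like levels given here, and the part of somatic RNA or doublets in them was not tested. Among them cluster 5 (69 cells) met 8 of 9 primordial markers, more than cluster 4, but its median depth of 2876 UMIs was the lowest of the 8 clusters and none of these markers was among its leading genes. It had 1182 CPM of *Zp2*, 378.6 of *Gdf9*, 29.83 of *Oosp1* and 1 UMI of *Bmp15*, and it is not in the stage folds. Also unnamed was cluster 7, 63 cells all from the WT IR library with 6 of 11 growing and 5 of 9 primordial markers. Radiation-responsive genes of the paper were among its leading genes (*Cst6*, *Cbr2*, *Fermt3* and *Fermt1*) and among those of cluster 5 (*Fermt3* and *Cst6*). The paper describes an oocyte subcluster found only in the irradiated wild-type sample and gives it a primordial signature. Whether cluster 7 holds the same cells was not tested. The classes depended on the processing of the cells, with 69 to 165 growing-like and 75 to 319 primordial-like cells over the 5 settings run. These limits were chosen with the clusters in view, but no member served as a marker.

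**Figure D5:**
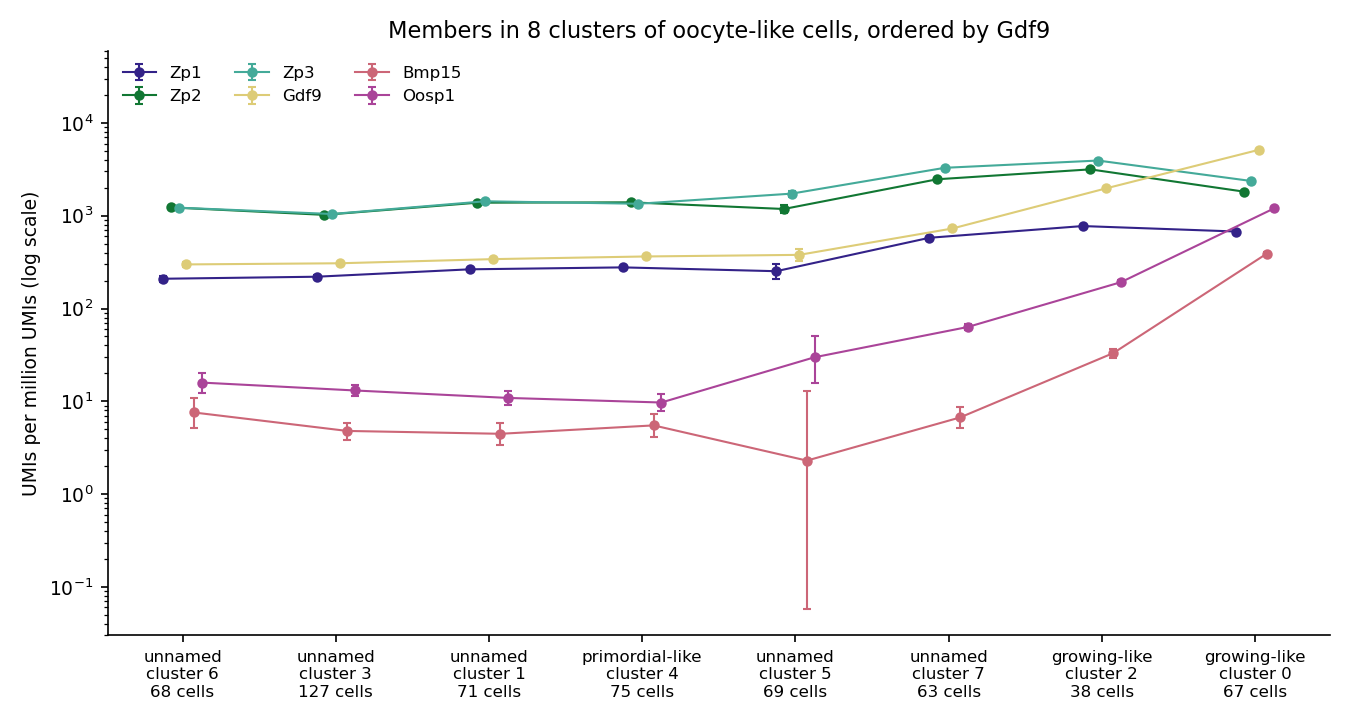
CPM (log axis) of the 6 genes in the 8 clusters of oocyte-like cells, ordered from left to right by *Gdf9*, with exact Poisson 95% limits; lines join the values of 1 gene for legibility and imply no path between clusters. The zona genes stay within a narrow band, whereas *Oosp1* and *Bmp15* climb from 9.7 and 5.5 in the primordial-like cluster to 1202 and 388.9 in growing-like cluster 0.

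The zona genes were already abundant in primordial-like cells, whereas *Bmp15* and *Oosp1* were far higher in growing-like cells. *Zp2* had 1395 CPM in primordial-like and 2536 in growing-like cells, 1.82-fold (1.78 to 1.85). *Zp3* had 1346 and 3203, 2.38-fold (2.33 to 2.43). *Zp1* had 277.5 and 728.2, 2.62-fold (2.52 to 2.74). Within single libraries the zona folds of these sums ran from 1.27 (*Zp2*, WT non-IR) to 3.61 (*Zp3*, Chek2-/- non-IR). At equal depth the means of *Zp2* and *Zp3* turned in 1 library, as given below. *Gdf9* had 363.9 and 3443 CPM, 9.46-fold (9.14 to 9.8). *Bmp15* had 5.5 and 199.1, 36.2-fold (27.5 to 48.7). *Oosp1* had 9.7 and 663.3, 68.4-fold (55.6 to 85.1). Other ways of filtering and clustering the cells gave 6.71 to 15.6 for *Gdf9*, 24.1 to 85.8 for *Bmp15* and 35.6 to 109 for *Oosp1*, far wider than the counting intervals. Against the 4 unnamed clusters without growing markers the folds were 2.16 for *Zp2*, 10.8 for *Gdf9*, 40.1 for *Bmp15* and 51.7 for *Oosp1*. The difference between the ligands lay in growing-like cluster 0, where the folds over the primordial-like cluster were 14.1 for *Gdf9* and 70.7 for *Bmp15*, whereas in growing-like cluster 2 they were 5.41 and 6.02. *Oosp1* was at 124-fold in cluster 0 and 19.8-fold in cluster 2. *Bmp15* was at 51 UMIs in all 75 primordial-like cells.

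At equal depth *Bmp15*, *Oosp1* and *Gdf9* still differed between the stages, whereas the order of the means of *Zp2* and *Zp3* depended on the library. With each cell thinned to 3000 UMIs, *Bmp15* was found in 50 of 100 growing-like cells (exact binomial interval of the share, in percent, 39.8 to 60.2) and in 0 of 68 primordial-like cells (upper limit 5.28%). *Oosp1* was found in 75% and 1.47%, *Gdf9* in 98.0% and 64.7%. *Zp2* and *Zp3* were found in most cells of both, *Zp2* in 90.0% and 89.7% and *Zp3* in 95% and 82.4%, whereas *Zp1* was found in 73.0% and 44.1%. The thinned means of *Zp2* were 5.87 UMIs per cell in growing-like and 5.0 in primordial-like cells, and those of *Zp3* 10.1 and 5.57. In the WT non-IR library (51 growing-like and 19 primordial-like cells) the order of the means was the opposite, with *Zp2* at 5.84 and 9.26 and *Zp3* at 11.7 and 12.7. The shares of these cells with a UMI were 90.2% and 100% for *Zp2* but 96.1% and 78.9% for *Zp3*. Thus for *Zp3* the shares and the means were in opposite order. In both Chek2-/- libraries growing-like cells had the higher mean of each. Without thinning *Bmp15* had a UMI in 90.5% of growing-like and 36.0% of primordial-like cells, whose median depths were 75451 and 119441 UMIs. *Bmp15* had the larger fold in each of the 3 libraries with enough primordial-like cells, for *Zp2* (1.27 in WT non-IR, 2.91 in Chek2-/- non-IR and 1.96 in Chek2-/- IR) and *Bmp15* (21.5, 13.4 and 46.9), and the WT IR library held 1 primordial-like cell.

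The growing-like clusters were not alike. Cluster 0 held the most *Gdf9* (5133 CPM against 1967 in cluster 2), *Bmp15* (388.9 against 33.09) and *Oosp1* (1202 against 192.3). Cluster 2 held more *Zp2* (3161 against 1821) and *Zp3* (3933 against 2368), while *Zp1* was closer (773.9 against 676). This order of *Zp2* and *Zp3* was that of WT non-IR and Chek2-/- IR cells, and in Chek2-/- non-IR cells cluster 0 had more of both (*Zp2* 3297 against 3022, *Zp3* 4682 against 3842). Cluster 0 also had the shallower cells, with a median of 29216 UMIs against 300959, and the part of depth in this was not tested. In the WT IR cells of cluster 7 the summed zona levels were near those of growing-like cells of all libraries (*Zp2* 2471, *Zp3* 3285), but deep cells weighed most in them, 1 cell holding 5059 of 30399 *Zp3* UMIs. At equal depth the means were 5.45 UMIs per cell for *Zp2* and 7.5 for *Zp3*, each between those of the stages pooled over libraries. The growing-like cells of the same WT IR library had less, 2.88 and 5.44 UMIs per cell at equal depth (16 cells) and 1417 and 1803 CPM in the sums. In the sums of cluster 7 *Gdf9* was at 728.7, and *Bmp15* was at 6.7, near the 5.5 of primordial-like cells, while *Oosp1* was at 63.21, above the 9.7 of primordial-like cells. The 4 unnamed clusters without growing markers had 1022 to 1382 CPM of *Zp2* and 2.3 to 7.57 of *Bmp15*.

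Over single oocyte-like cells the zona genes correlated most with each other, and *Bmp15* and *Oosp1* with each other and with *Gdf9*. In 336 cells with at least 50000 UMIs, Pearson's r of log values was 0.91 for *Zp2* and *Zp3*, 0.822 for *Zp1* and *Zp3*, 0.907 for *Bmp15* and *Oosp1*, 0.909 for *Gdf9* and *Oosp1* and 0.773 for *Gdf9* and *Bmp15*, and 0.185 for *Zp2* and *Bmp15*. *Gdf9* also correlated with the zona genes, at 0.702 with *Zp1*, 0.624 with *Zp3* and 0.546 with *Zp2*, and *Zp1* with *Oosp1* at 0.57. Over all 578 cells, which share 4 libraries and differ in depth, *Zp2* and *Bmp15* had 0.137 and *Zp2* and *Zp3* 0.769. Among 10031 genes with at least 500 UMIs, the ones most like each member over the 578 cells were partly shared, *Zar1* by *Zp3* and *Gdf9*. They were *Dppa5a* (0.593), *Npm2* and *Padi6* for *Zp1*, *Ooep* (0.627), *Padi6* and *Nlrp14* for *Zp2*, and *Padi6* (0.659), *Ooep* and *Zar1* for *Zp3*. For *Gdf9* they were *Zbed3* (0.849), *Zar1* and *Oas1e*, for *Bmp15* *Gm1965* (0.837), *Fbxw20* and A530040E14Rik, and for *Oosp1* A530040E14Rik (0.912), *Mos* and *Sp110*. These are descriptions over cells, which are not replicates.

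Among the lists, 10 of 12 regulators and 3 of 14 receptors and SMADs were higher in oocyte-like than in granulosa-like cells. The regulators that were not were *Tcf4* (110 and 252 CPM) and *Tcf12*, partners of helix-loop-helix factors. The 3 receptors and SMADs were *Acvr1b* (13.7 and 6.31), *Smad2* (56.6 and 39.3) and *Smad9* (1.72 and 0.159). *Figla* had 553 CPM in oocyte-like and 1.98 in granulosa-like cells, and *Nobox* 385 and 1.52. *Figla*, *Nobox* and *Sohlh1*, all among the 10 regulators, were also markers that named the oocyte cluster, so their difference from granulosa-like cells was built in. *Figla* and *Nobox* were as high in primordial-like (692 and 439) as in growing-like cells (460 and 432), unlike *Bmp15*. *Bmpr2*, the type II receptor of both ligands, had 44.9 in oocyte-like and 115 in granulosa-like cells, and *Smad3*, an effector of GDF9, 63.5 and 143. *Bmpr1b* was at 31.4 and 31.5, and at 2.75 in stromal fibroblast-like cells. *Oosp2* and *Oosp3*, further oocyte-secreted proteins, had 216 and 78.2 CPM in growing-like and 14.8 and 1.94 in primordial-like cells. *Astl* had 315 and 40.3. *Oosp2* was itself a growing oocyte marker used to name the stages, so its difference was built into the classes. *Oosp3* was not a marker.

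Between the 4 libraries the levels over all oocyte-like cells could not be ordered. In WT IR (170 cells) against WT non-IR (194 cells) the sums gave ratios of 1.43 for *Zp1* and *Zp2*, 1.71 for *Zp3*, 1.48 for *Gdf9*, 2.21 for *Bmp15* and 2.47 for *Oosp1*. All 6 turned to the opposite direction when the cells were averaged with equal weight or thinned to 3000 UMIs, where *Zp2* changed by -0.34 and -0.20 on the log2 scale. Thinning left out the cells with fewer UMIs, 51 of 170 in WT IR and 7 of 194 in WT non-IR, so the thinned cells were unequally selected. The median depth of oocyte-like cells was 181837 UMIs in WT non-IR and 17581 in WT IR, and no direction is read from these ratios. In Chek2-/- IR (139 cells) against Chek2-/- non-IR (75 cells) the ratios were 1.11 for *Zp1*, 1.08 for *Zp2*, 0.985 for *Zp3*, 1.51 for *Gdf9*, 3.7 for *Bmp15* and 2.1 for *Oosp1*, of which *Oosp1* turned to the opposite direction with cells averaged at equal weight. Between genotypes without irradiation they were 0.98 for *Zp1*, 1.21 for *Zp2*, 1.3 for *Zp3*, 0.941 for *Gdf9*, 0.633 for *Bmp15* and 0.87 for *Oosp1*, and *Zp2* and *Zp3* turned direction under both other ways of averaging. Growing-like cells numbered 54 of 194 in WT non-IR, 17 of 170 in WT IR, 15 of 75 in Chek2-/- non-IR and 19 of 139 in Chek2-/- IR libraries. In the sums of these cells *Bmp15* was at 150.7, 410.4, 60.54 and 259.1 CPM and *Zp2* at 2271, 1417, 3086 and 2921. Of the 1006 *Bmp15* UMIs in WT IR growing-like cells, 323 were in 1 cell. Thinned to 3000 UMIs (51, 16, 14 and 19 cells), *Bmp15* was at 0.804, 0.562, 0.643 and 1.16 UMIs per cell. *Zp2* was at 5.84, 2.88, 9.07 and 8.37. For *Bmp15* the order of the wild-type libraries turned, and no direction is read from it. All 17 WT IR growing-like cells were in cluster 0, which also held 37 of the 54 in WT non-IR, 4 of the 15 in Chek2-/- non-IR and 9 of the 19 in Chek2-/- IR.

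The values of bulk and single cells are set side by side here without a test. The zona genes, the least restricted to growing-like cells, were also the least reduced in the Chek2-/- libraries numbered 6, with *Zp2* at 1.82-fold between stages and 58.8% and 64.0% of the other libraries. Within them the order did not hold, since *Zp1* had the largest pooled fold (2.62) and the least reduction (59.6% and 68.1%), and in Chek2-/- non-IR cells *Zp3* (3.61) had a larger fold than *Zp1* (3.29). The members most restricted were the most reduced, with *Bmp15* at 36.2-fold and 11.2% and 10.8%, and *Oosp1* at 68.4-fold and 38.3% and 36.9%. *Gdf9* lay between them on both scales, at 9.46-fold and 42.1% and 44.7%. *Oosp1* and *Bmp15* were in opposite order on the 2 scales.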

How the data were processed

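Bulk RNA-seq of 24 ovary libraries and 10x single-cell RNA-seq of 4 libraries were used. The bulk values were estimated counts per gene (expected counts) deposited by the authors, made with Salmon 1.3.0 in the nf-core/rnaseq workflow after trimming with Trim Galore 0.6.5, with FastQC 0.11.9 and MultiQC 1.9 (mm10, per the submitters' processing notes). For the bulk data the methods name an Ensembl transcript release and no genome build. The bulk counts were used as they came. These counts were rounded to whole numbers here. The single-cell values were raw UMI counts from Cell Ranger (mm10/GRCm38), deposited by the authors as filtered matrices; the bcl2fastq version was 2.20.0.422.

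Genes with at least 10 counts over all libraries were scaled by TMM and tested in edgeR 4.0.16 (R 4.3.3) by the quasi-likelihood test with 1 coefficient per group over all 24 libraries, which share the estimate of spread. P-values were adjusted by Benjamini-Hochberg over all genes tested. Genes were called at an adjusted p of at most 0.05 and at least 2-fold, and the adjusted p alone was read beside it. Nothing in the labels pairs the 6 libraries of a group with single animals beyond their number, and p-values measure the spread between these libraries. No 2 libraries of a group agreed within counting noise. Salmon counted without a stated strand setting, so reads of overlapping genes may be shared. Members and lists were chosen with earlier results of these data known. The genes named are the 6 members, listed genes that passed an adjusted p of 0.05 in a bulk comparison, up to 3 other listed genes with the most counts, and the genes most like the members; *Amh*, *Fshr*, *Bmpr1b*, *Smad3*, *Oosp2*, *Oosp3*, *Ptgs2*, *Tcf4*, *Tcf12* and *Smad9* were also named after their values were seen.

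Cells with at least 1000 genes, at most 20% mitochondrial and 50% ribosomal UMIs were kept, 1866 doublet calls were removed, and clusters (scanpy 1.11.5, 2000 variable genes, 30 components, resolution 0.5) were named from markers. The limits for naming (a marker in at least 25% of cells and 2-fold over the median cluster, at least 60% of a list) and those for stages, where a first rule that named no primordial cluster was replaced, were set after the clusters were seen, as were thinning and the leaving out of both Chek2-/- libraries numbered 6. A stage marker was met where the cluster's level reached the geometric mean of the lowest and highest cluster. Intervals are exact Poisson or exact binomial (Clopper-Pearson) at 95% and cover counting error only. Only the edgeR fit was tested on simulated bulk counts. Alternatives were DESeq2 1.42.0, limma 3.58.1 (voom), other scalings and filters, the replicate number as a block, and each library left out in turn.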

Additional observations from a re-analysis of the deposited data

Results flagged for a closer look

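Each member was screened in each of the 4 bulk groups for 1 library far from the other 5, by the gap to the nearest library over the range of the group, with the 95% limit of Dixon's test for 6 libraries. Chance alone puts about 1 in 20 groups past this limit. Of 24 groups tested 10 were past it, and 9 of these were the Chek2-/- libraries numbered 6. The 6 genes were measured in the same libraries and varied together, so the 24 are not independent screens and their count is not read against that rate. In the irradiated library numbered 6, *Zp1* stood at 206.4 CPM. *Zp2* stood at 802.7 CPM in the sham and 883.3 in the irradiated library, *Zp3* at 351.1 and 390.5, *Gdf9* at 226.4 and 234.7, and *Oosp1* at 14.41 and 12.55. *Zp1* in the sham library (180.3 CPM, ratio 0.599) and *Bmp15* in both (8.26 and 7.467 CPM, ratios 0.512 and 0.571) were the lowest of their groups and within the limit. In the same 2 libraries the granulosa targets had medians of 73.8% and 73.2% of the other libraries, from *Fshr* at 15.1% and 12.2% to *Ptgs2* at 322% and 408%, and the part of these in the members' values was not tested.

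The remaining library past the limit was WT non-IR number 1 with *Bmp15* at 125.4 CPM, above the next value of 94.36.

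Among the regulators, the responses of *Sohlh1* to irradiation differed between the genotypes by 0.878 on the log2 scale, with changes of -0.78 in wild-type and 0.095 in Chek2-/- ovaries (adjusted p = 0.0131, edgeR, interaction term).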

How the results depend on the processing

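In the irradiation comparisons and the difference between them, 0 of 6 members passed an adjusted p of 0.05 under every setting run. Their small estimates changed sign under some settings. Scaling to general oocyte genes moved the median of all genes by 0.19 in wild type, -0.07 in Chek2-/- and -0.27 for the difference of responses (log2), and by 0.09 and -0.18 for the genotypes without and with irradiation. Members moved with it, to 0.16 (*Zp1*), 0.094 (*Zp2*), 0.148 (*Zp3*) and 0.165 (*Gdf9*) for irradiation in wild type, to -0.027 (*Zp1*), -0.024 (*Zp2*) and -0.041 (*Zp3*) in Chek2-/-, and to -0.188 (*Zp1*), -0.119 (*Zp2*), -0.188 (*Zp3*) and -0.237 (*Gdf9*) for the difference of responses. That difference for *Gdf9* was also below 0 with DESeq2 (-0.004), RLE factors (-0.004), filterByExpr (-0.01), no filter (-0.007) and both Chek2-/- libraries numbered 6 left out (-0.005), where *Zp3* in Chek2-/- was at -0.006. With limma-voom 30 of 30 member changes kept their side.

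With 1 library left out at a time, log2 changes ranged in wild type from -0.067 to 0.01 (*Zp1*), -0.078 to 0.026 (*Gdf9*), -0.024 to 0.116 (*Bmp15*) and -0.032 to 0.087 (*Oosp1*). In Chek2-/- they ranged from -0.075 to 0.096 (*Zp1*), -0.073 to 0.111 (*Zp2*), -0.109 to 0.105 (*Zp3*), -0.175 to 0.104 (*Gdf9*), -0.315 to 0.14 (*Bmp15*) and -0.305 to 0.004 (*Oosp1*). For the difference of responses they ranged from -0.044 to 0.117 (*Zp1*), -0.064 to 0.139 (*Zp3*), -0.143 to 0.124 (*Gdf9*) and -0.326 to 0.118 (*Bmp15*).

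Members lower in Chek2-/- at the adjusted p numbered 1 of 6 in each treatment. In sham ovaries this became 3 with DESeq2, 0 with only the groups compared (*Zp1* at 0.0564), 4 without both libraries numbered 6, and 0 to 3 with 1 library left out. In irradiated ovaries it became 3 with DESeq2, 5 with oocyte scaling, 2 with filterByExpr, 5 without both libraries numbered 6, and 0 to 4 with 1 left out. Of all genes, 5.34% and 9.84% passed in sham and irradiated ovaries in the main fit, and 7.09% and 12.6% without both libraries numbered 6. For the other settings, and for the replicate block below, no such share is given, so those counts are not read as results about the members. Oocyte scaling also moved the median of all genes by -0.18 in irradiated ovaries. Without the 2-fold minimum the count was 1 in each treatment, and 0 with it. Genes called for irradiation in Chek2-/- numbered 1, but 9 with DESeq2 and 0 with only the groups compared (0 to 2 with 1 library left out). Genes called between genotypes in sham ovaries numbered 211, but 127 with DESeq2, 112 with oocyte scaling, 102 with only the groups compared and 96 to 288 with 1 library left out. The cause was not tested.

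The labels state no pairing, and the correlations did not settle whether libraries of the same number were related. Same-numbered libraries correlated between 0.041 and 0.357 in Chek2-/- and between -0.063 and 0.222 in wild type, with 3 of 6 pairs over 0.1 in each. In Chek2-/- 1 library correlated best with its own number, number 6 at 0.357. In wild type 3 did, number 4 at 0.142, number 5 at 0.222 and number 6 at 0.198. With the replicate number as a block, 2 members passed between genotypes in sham ovaries, *Zp1* (-0.47, adjusted p = 0.0122) and *Gdf9* (-0.57, adjusted p = 0.0276), and 3 in irradiated ovaries, *Zp1* (-0.42, adjusted p = 0.0154), *Gdf9* (-0.59, adjusted p = 0.0168) and *Oosp1* (-0.68, adjusted p = 0.0183), by edgeR. The block turned the *Gdf9* difference of responses to -0.016. Genes called with the block numbered 262, 1, 147, 171 and 621, against 288, 1, 167, 211 and 639.

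In the single-cell sums, averaging cells with equal weight turned the WT IR change to -0.643 (*Zp1*), -0.337 (*Zp2*), -0.361 (*Zp3*), -0.841 (*Gdf9*), -1.25 (*Bmp15*) and -0.858 (*Oosp1*), and thinning turned it to -0.844, -0.205, -0.321, -0.498, -0.67 and -0.27 (log2). For irradiation in Chek2-/-, *Oosp1* became -0.122 with equal weight. Between genotypes without irradiation, *Zp2* became -0.26 and -0.243 and *Zp3* -0.651 and -0.591. With irradiation, *Zp2* became 0.36 and *Gdf9* 0.077 with equal weight, and *Zp1* 0.195 and *Zp2* 0.197 with thinning. Leaving out both Chek2-/- libraries numbered 6 moved 14 of 35 counts over gene lists. Stage folds of sums kept their direction under 4 other ways of filtering and clustering cells, from 1.46 to 1.95 for *Zp2* and from 24.1 to 85.8 for *Bmp15*. With thinning, the means of *Zp2* and *Zp3* turned in WT non-IR cells (*Zp2* 5.84 growing-like against 9.26 primordial-like UMIs per cell).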
